A study of Mus musculus with 3 samples.

Results

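The 10 hypoxia and glycolysis genes described here, Hif1a, Vegfa, Slc2a1, Hk2, Pfkp, Aldoa, Pgk1, Eno1, Pkm and Ldha, were taken by their symbols from the 32285 genes counted in aortic cells of mice in which human APOE replaces the mouse gene. All 10 were found and all 10 were detected. They were named as a list with earlier results of these data known, and no value set a limit for membership. Single-cell RNA-seq was done on 3 libraries, 1 for each genotype, and each library pooled the aortas of several animals. The APOE2 library held 6 male mice carrying human APOE2, the APOE3 library held 5 carrying APOE3 and the APOE4 library held 7 carrying APOE4. The strains had been backcrossed to C57BL/6J, and from 12 weeks of age all of the mice ate a Western diet with 42% fat and 0.2% cholesterol for 16 weeks, so no group on ordinary chow is part of these comparisons. With 1 pooled library per genotype no difference between genotypes can be tested and the spread between animals is unknown. The 95% intervals given below are exact and cover counting error only, and a genotype cannot be told apart from the pool and library that represent it. The genotype labels were not checked here.

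HIF-1 is the transcription factor with which animal cells answer a shortage of oxygen. Its alpha subunit, encoded by Hif1a, is made all the time and destroyed while oxygen is present, so that Hif1a mRNA does not measure the activity of the protein. When the subunit is spared it enters the nucleus and raises genes for glucose uptake, for glycolysis and for the growth of vessels, of which Slc2a1, the other enzymes below and Vegfa are textbook examples. Glycolysis splits glucose into pyruvate and yields ATP without oxygen, and lactate dehydrogenase then turns pyruvate into lactate. Contractile smooth muscle uses it heavily, and activated macrophages are known to lean on it as well. Several of these genes also answer other signals, so a high level of one of them is not by itself a sign of low oxygen.

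Cells with at least 200 genes and less than 20% of their unique molecular identifiers (UMIs, each standing for 1 captured transcript) from mitochondrial genes were kept, which left 11772, 6737 and 8248 cells of 12288, 7247 and 8971 barcodes in the APOE2, APOE3 and APOE4 libraries, with median depths of 12047, 17618 and 13522 UMIs per cell. A cell was given to a class when it carried at least 3 markers of that cell type above a set share of its UMIs and not those of another. This gave 8693, 5493 and 6242 smooth muscle-like cells, 1400, 764 and 1076 fibroblast-like cells and 399, 126 and 146 macrophage-like cells in APOE2, APOE3 and APOE4. All 10 markers of each of these 3 classes were present in at least 10% of its own cells. The same markers had defined the classes, so this is no separate support for their names. By the same rule 9 of the 10 smooth muscle markers were present in fibroblast-like cells and 7 in macrophage-like cells. Smaller classes were endothelial-like (96, 9 and 19 cells), T lymphocyte-like (85, 14 and 77), B lymphocyte-like (24, 8 and 258), neutrophil-like (33, 5 and 3) and erythroid-like cells (70, 5 and 32). Another 1148 cells that fitted several classes, 489 of them among the highest doublet scores, were left out, as were 501 cells that fitted none. Between 14 and 27 cell barcodes were shared by any pair of libraries. Smooth muscle marker RNA was seen in every class. The summed smooth muscle markers ranged from 638 to 2993 CPM in cells of other classes (CPM here means UMIs per 1000000 UMIs of the summed cells of a class and library), against 54189 to 61235 in smooth muscle-like cells. Whether this was free RNA, doublets or the cells' own transcripts was not tested. The erythroid-like cells were taken as a rough gauge of background for the members. Their 8 glycolysis members together stood at 70.5, 169 and 76.3 CPM in APOE2, APOE3 and APOE4, against 1773 to 2062 in smooth muscle-like cells.

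The letters upstream of the genes are shown first, since the binding core of HIF-1 is what ties the list together in the textbooks. The core was searched as ACGTG or GCGTG on either strand (read as CACGT or CACGC on the other strand) in the 250 bases before the first RefSeq start of each gene in GRCm38.p6. It was found at 7 of the 10 members and at 38.6% of all 27025 genes with a window. Hif1a and Ldha held it inside the longer palindrome CACGTG, an E-box that other factors also bind and that 6.04% of all windows held. The stretches below are 60 bases each, run 5′ to 3′ on the strand of the gene and end before its start, and capitals mark the matches to the core.

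Hif1a, chr12:73907705-73907764, plus strand: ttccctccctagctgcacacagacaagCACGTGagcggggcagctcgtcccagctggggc
Slc2a1, chr4:119108669-119108728, plus strand: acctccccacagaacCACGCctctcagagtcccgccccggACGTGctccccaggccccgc
Hk2, chr6:82774474-82774533, minus strand: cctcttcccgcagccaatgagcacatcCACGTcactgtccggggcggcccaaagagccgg
Pfkp, chr13:6648785-6648844, minus strand: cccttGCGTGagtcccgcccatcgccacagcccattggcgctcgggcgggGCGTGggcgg
Pgk1, chrX:106186932-106186991, plus strand: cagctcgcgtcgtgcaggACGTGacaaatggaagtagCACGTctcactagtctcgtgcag
Ldha, chr7:46845734-46845793, plus strand: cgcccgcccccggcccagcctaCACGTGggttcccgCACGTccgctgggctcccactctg

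Ldha held the most, with 5 matches in its window when overlapping ones are counted separately and the nearest 34 bases before the start, while the nearest match of Hk2 lay 52 bases before its start. The last bases of the Slc2a1 stretch reach into the first exon of its GENCODE model. Eno1 held 1 match, 230 bases before its first start. At Vegfa, Aldoa and Pkm no match lay in the window of the first start, although each has another annotated start with a match, and these letters say nothing of the factor elsewhere. The genes themselves lie on chromosomes 12 (Hif1a), 17 (Vegfa), 4 (Slc2a1 and Eno1), 6 (Hk2), 13 (Pfkp), 7 (Aldoa and Ldha), X (Pgk1) and 9 (Pkm). Exons of Hif1a, Slc2a1, Pfkp and Aldoa overlap exons of a gene on the opposite strand (Gm15283, Gm12868, Pitrm1 and Fam57b) in the GENCODE vM21 annotation, and how the counting treated strand is not given in the sources used here. Aldoa names 2 gene entries in the files, and the entry with 223233 UMIs over all barcodes was used while the other, with 39, was not.

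Hif1a, the oxygen-labile subunit of HIF-1, was detected in every class of nucleated cells. In smooth muscle-like cells APOE2 had 84.7 CPM (95% interval 83.1 to 86.3), APOE3 90.7 (89.0 to 92.5) and APOE4 106 (104 to 108). The 3 intervals did not overlap and the order ran from APOE2 to APOE4, but APOE4 was only 1.17 times APOE3. In fibroblast-like cells APOE2 had 74.0 (69.8 to 78.3), APOE3 44.6 (40.0 to 49.6) and APOE4 47.7 (43.5 to 52.2), so that here APOE2 was the high library over the whole class. Of the APOE2 UMIs, 519 of 1168 came from 66 cells of a smooth muscle cluster described below, and the fibroblast-like cells in fibroblast clusters stood at 46.8, 42.4 and 47.3, where APOE2 was not the high library. Macrophage-like cells lay at 64.7, 58.8 and 63.4, with intervals that overlapped throughout. Endothelial-like cells had 95.2 (77.7 to 115) in APOE2 and 133 (77.4 to 213, from 17 UMIs) in APOE4, the highest median of all classes. Both intervals took in the values of smooth muscle-like cells. The erythroid-like cells had 2.71 in APOE2 and 4.49 in APOE4. Of the UMIs of the HIF alpha genes, Hif1a took 66.1% to 69.1% in smooth muscle-like and 82.7% to 91.8% in macrophage-like cells, whereas endothelial-like cells had mostly Epas1, the HIF-2 alpha subunit known for its role in endothelium, which took 82.1% to 87.1%. These shares are of UMIs and are not scaled by transcript length.

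Vegfa, the growth factor that draws new capillaries, was the scarcest member in smooth muscle-like cells, where APOE2 had 6.69 CPM (6.26 to 7.15), APOE3 8.38 (7.86 to 8.94) and APOE4 14.8 (14.1 to 15.6), so APOE4 was the high library and the intervals were apart. The log2 ratio of APOE4 to APOE3 was 0.82 (0.71 to 0.94) and that of APOE4 to APOE2 1.15 (1.03 to 1.27). Fibroblast-like cells had 18.1, 13.4 and 15.6, which in APOE2 and APOE3 was more than in the smooth muscle-like cells of the same library. In APOE4 their interval, 13.3 to 18.3, overlapped that of smooth muscle-like cells. The interval of the APOE4 to APOE3 ratio in fibroblast-like cells, from -0.15 to 0.60 on the log2 scale, included 0. In macrophage-like cells the APOE2 library held 57 Vegfa UMIs, the APOE3 library 1 and the APOE4 library 0. That is 16.5 CPM in APOE2 and 1.11 in APOE3. The level of 3 counts in APOE4 is 2.84 CPM, and APOE2 was 5.80-fold above that level. The exact interval of the APOE4 level reached 3.49 CPM, and that of the log2 ratio of APOE4 to APOE2 reached up to -2.19. Neutrophil-like cells of APOE2 had 70.2 CPM and the endothelial-like cells 34.2 in APOE2 and 23.5 in APOE4.

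**Figure D1:**
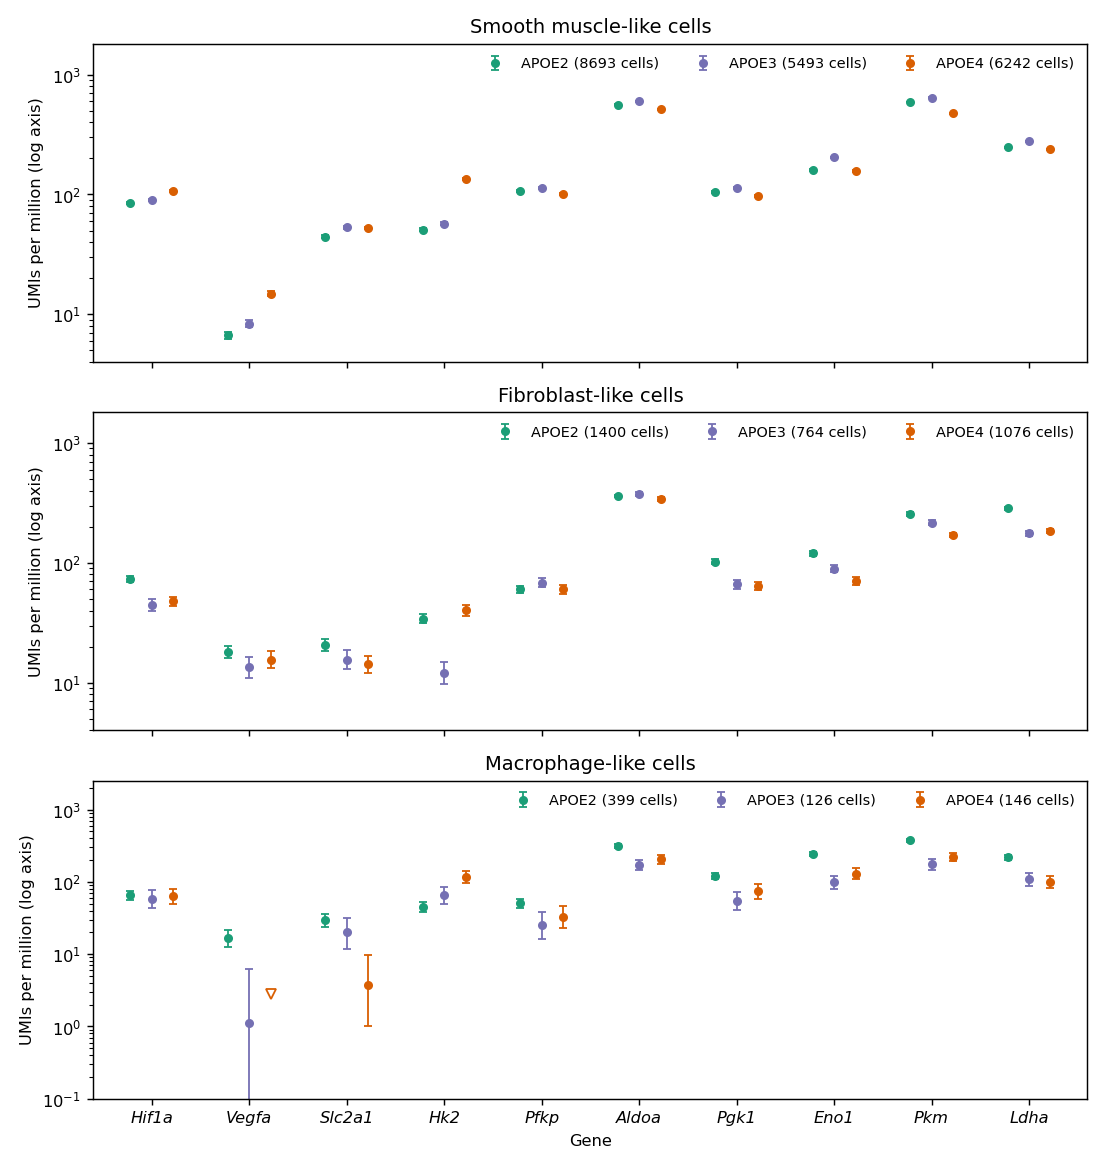
Level of the 10 members in smooth muscle-like, fibroblast-like and macrophage-like cells. Points are CPM of the summed cells of a library on a log axis, bars are exact 95% Poisson intervals (counting error only), and the open triangle marks the level of 3 counts where none was seen (Vegfa in APOE4 macrophage-like cells). Hk2 stands out in APOE4 smooth muscle-like cells at 135 against 51.0 and 57.0.

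Slc2a1 encodes GLUT1, the basal glucose transporter. In smooth muscle-like cells it was at 44.5 CPM in APOE2, 53.1 in APOE3 and 52.6 in APOE4. APOE3 and APOE4 could not be told apart, with a log2 ratio of -0.01 (-0.07 to 0.04), and APOE2 was lower than both. Fibroblast-like cells stood at 20.6, 15.6 and 14.2. Macrophage-like cells had 101 UMIs (29.2 CPM) in APOE2 and 18 UMIs in APOE3, and in APOE4 4 UMIs, or 3.78 CPM (1.03 to 9.69), a log2 ratio to APOE2 of -2.95 (-4.85 to -1.55). The interval is wide because of those 4 UMIs. Slc2a4, the insulin-regulated transporter of muscle and fat, took 25.4% of the transporter UMIs in APOE2 smooth muscle-like cells and 11.3% and 13.4% in APOE3 and APOE4, and Slc2a3 took 16.8%, 40.0% and 55.6% in macrophage-like cells of the 3 libraries.

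Hk2, hexokinase 2, traps glucose in the cell as its phosphate and is the inducible hexokinase of muscle. It showed the widest gap between libraries in smooth muscle-like cells, where APOE2 had 51.0 CPM (49.8 to 52.2), APOE3 57.0 (55.6 to 58.4) and APOE4 135 (133 to 138). APOE4 was 2.38-fold above APOE3 (log2 1.25, 1.21 to 1.29) and 2.65-fold above APOE2 (log2 1.41, 1.37 to 1.45), while APOE2 and APOE3 lay within 1.12-fold of each other. With each cell thinned to 1000 UMIs, 5.17% of APOE2, 5.28% of APOE3 and 12.0% of APOE4 smooth muscle-like cells had an Hk2 UMI. The erythroid-like cells had one in 2.90% of APOE2 and 0 of 32 APOE4 cells. For the latter 3 cells would be 9.38%, which is a rough limit and not the exact interval. Cells under 1000 UMIs were left out of these shares (236, 57 and 98), and without thinning the shares were larger, 40.8%, 52.4% and 67.6%. Macrophage-like cells had 45.3, 65.4 and 117 CPM, so APOE4 was again the high library at 1.79-fold over APOE3 (log2 0.84, 0.38 to 1.31). In fibroblast-like cells it was APOE3 that stood low over the whole class, with 12.1 (9.77 to 14.8) against 34.2 in APOE2 and 40.1 in APOE4, and the ratio of APOE4 to APOE3 was 3.31-fold. Of the APOE2 UMIs, 221 of 540 came from 66 cells of a smooth muscle cluster described below. The fibroblast-like cells in fibroblast clusters stood at 23.2, 11.4 and 40.5. In R4, the largest fibroblast cluster, they stood at 9.18, 8.61 and 34.5, so that APOE4 alone was high there. Beside Hk1, the constitutive hexokinase, Hk2 made up 64.4%, 66.3% and 82.8% of hexokinase UMIs in smooth muscle-like cells of APOE2, APOE3 and APOE4. The level of Hk1 itself was 28.1, 28.9 and 27.9 CPM there, so that the shift in share came with a higher Hk2 level at an even Hk1 level. In macrophage-like cells Hk3, known from myeloid cells, took a further 21.9% to 31.3%.

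Pfkp is the platelet form of phosphofructokinase, the enzyme of the committed step, and it was the steadiest member in smooth muscle-like cells at 107, 113 and 101 CPM in APOE2, APOE3 and APOE4. Fibroblast-like cells had 60.0, 68.0 and 60.0. Macrophage-like cells were lower and more uneven, with 50.2 in APOE2 against 25.5 in APOE3 and 33.1 in APOE4. Pfkp made up 58.6% to 61.2% of phosphofructokinase UMIs in smooth muscle-like cells, with Pfkl and Pfkm, the liver and muscle forms, taking the rest.

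The enzymes of the lower pathway, Aldoa (aldolase A), Pgk1 (phosphoglycerate kinase), Eno1 (enolase 1), Pkm (pyruvate kinase of muscle and most other tissues) and Ldha (lactate dehydrogenase A), took another order in smooth muscle-like cells than Hk2. All 5 were highest in APOE3. Aldoa stood at 561, 600.0 and 515 CPM in APOE2, APOE3 and APOE4, Pgk1 at 104, 113 and 96.3, and Eno1 at 160.5, 204 and 158. Pkm had 592, 643 and 476, and Ldha 248, 278 and 238. The log2 ratios of APOE4 to APOE3 ran from -0.43 (-0.45 to -0.42) for Pkm to -0.22 for Aldoa and Ldha, none of them a change of 1.5-fold. The sums of the 8 glycolysis members were at 1867, 2062 and 1773, so that the summed level was lowest in the library in which Hk2 was highest. Aldoa and Pkm each supplied nearly all UMIs of their families in smooth muscle-like cells, while Ldha shared its family with Ldhb, the heart form, which held 42.2% to 48.4% there and 2.47% to 3.96% in macrophage-like cells.

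**Figure D2:**
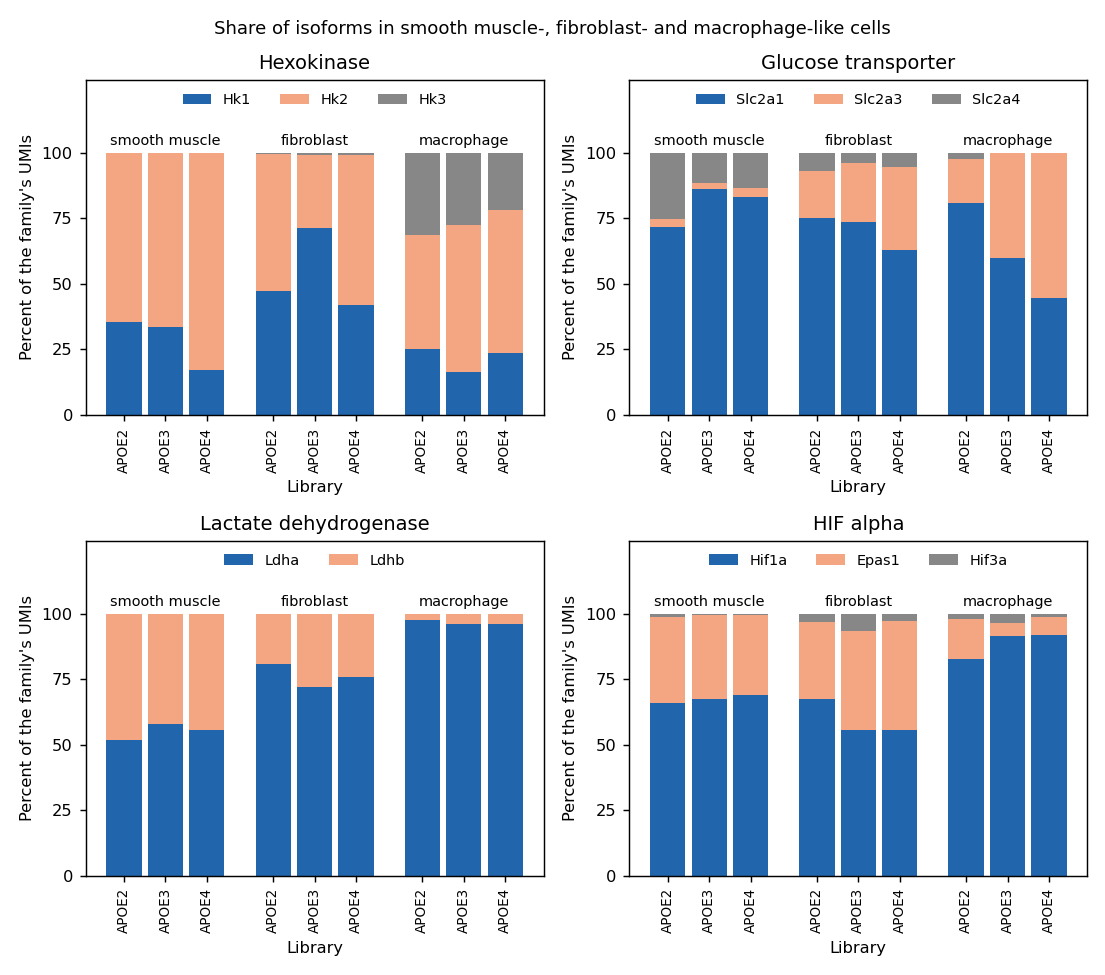
Share of each isoform in the UMIs of its family (percent, stacked bars) in smooth muscle-, fibroblast- and macrophage-like cells of each library. In smooth muscle-like cells Hk2 takes 82.8% of hexokinase in APOE4 against 64.4% and 66.3%, and Ldhb takes 42.2% to 48.4% of lactate dehydrogenase there against 2.47% to 3.96% in macrophage-like cells.

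Between genotypes, a gene was counted as past the fold when 2 libraries differed by at least 1.5 times and had at least 50 UMIs of it between them. In smooth muscle-like cells 0 of the 10 members passed from APOE2 to APOE3 in either direction, beside 9.20% of all 15394 genes higher and 3.04% lower. From APOE4 to APOE3, 2 members were higher (Hk2 and Vegfa) beside 8.29% of all genes, and 0 were lower beside 4.06%. From APOE4 to APOE2 the same 2 were higher beside 7.43%, and 0 were lower beside 10.4%. The median log2 ratio of the members was -0.14, -0.19 and -0.04 in these comparisons, and that of all genes 0.04, -0.08 and -0.11. The 3 comparisons share libraries and are not independent of each other.

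In fibroblast-like cells 4 members were higher in APOE2 than in APOE3 (Hif1a, Hk2, Pgk1 and Ldha) beside 6.68% of all genes, and 0 were lower beside 7.40%. The log2 ratios were 0.73 (0.55 to 0.91) for Hif1a, 1.50 (1.18 to 1.83) for Hk2, 0.62 (0.48 to 0.77) for Pgk1 and 0.68 (0.60 to 0.77) for Ldha. From APOE4 to APOE3, 1 member was higher (Hk2) beside 5.21%, and 0 were lower beside 5.67%. The summed immediate early and heat shock list stood at 9149 CPM in APOE3 and 16862 in APOE4 fibroblast-like cells, and its part in the Hk2 result was not tested. Among cells at or under the class median of that list Hk2 had 28 UMIs in APOE4 and 15 in APOE3, too few to be counted (log2 ratio 1.71, 0.76 to 2.72), and among cells over it the log2 ratio was 1.10 (0.74 to 1.47). From APOE4 to APOE2, 0 were higher beside 6.91% and 4 were lower (Hif1a, Pgk1, Eno1 and Ldha) beside 8.20%. The medians over the members were 0.43, -0.09 and -0.56, and over all genes -0.02, -0.10 and -0.06. Summed smooth muscle markers in the class were at 1528, 1232 and 1157 CPM in APOE2, APOE3 and APOE4, and part of the APOE2 values came from a small group of cells. A clustering of all cells was made without the members, the pathway genes and the immediate early and heat shock list. It placed 66 APOE2 and 11 APOE3 fibroblast-like cells in cluster R5. The leading genes of R5 were Spp1, Vcam1 and Lcn2, and 1592 of its 1830 cells were smooth muscle-like. These 66 cells stood at 227 CPM for Hif1a, 96.8 for Hk2, 519 for Ldha and 492 for Pkm. In cluster R4, led by Fmod, Inmt and Serpinf1 and holding 618 APOE2 and 462 APOE3 cells of the class, APOE2 over APOE3 gave a log2 ratio of 0.05 (-0.08 to 0.17) for Ldha and 0.09 (-0.50 to 0.69) for Hk2. In cluster R9, led by Opcml, C3 and Pi16 with 494 and 151 cells, it was 0.89 (0.72 to 1.06) for Ldha and 1.03 (0.53 to 1.57) for Hk2. Pgk1 and Eno1 were past the fold in R9 as well, and no member was in R4. In cluster R16, led by Ndufa4l2, Serpinf1 and Igfbp6 with 108 and 99 cells, Ldha was past the fold at 0.94 (0.28 to 1.65), as were Pgk1 at 0.70 (-0.22 to 1.72) and Eno1 at 0.88 (-0.06 to 1.93) with intervals that held 0, and Hk2 had 5 and 3 UMIs. From APOE4 to APOE2, Hk2 was higher in R4 at 1.91 (1.49 to 2.35) and in R9 at 0.78 (0.46 to 1.09), both past the fold. In R5 it was lower at -1.77, on 3 APOE4 UMIs, and in R16 it had 11 and 5 UMIs. The differences between the clusters were not tested, and how many of all genes were past the fold within a cluster was not counted. When fibroblast-like cells with 100 or more smooth muscle marker UMIs were left out (41, 5 and 8 cells), Hk2 was the 1 member with a 1.5-fold gap from APOE2 to APOE3, with a log2 ratio of 1.38. Ldha and Pgk1 then stood just under the fold, both at 0.56 on the log2 scale from 0.68 and 0.62, while Hif1a was at 0.44.

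In macrophage-like cells 7 members were higher in APOE2 than in APOE3 beside 11.9% of all 7687 genes, and 0 were lower beside 13.4%. Besides Vegfa these were Pfkp, Aldoa, Pgk1, Eno1, Pkm and Ldha. Eno1 had the largest ratio among the enzymes, 241 CPM (225 to 258) against 98.7 (79.3 to 121), or 2.45-fold. Pkm had 373 against 174, Pgk1 122 against 54.4, Ldha 217 against 108 and Aldoa 313 against 173. From APOE4 to APOE3, 1 member was higher (Hk2) beside 10.3% and 0 were lower beside 11.2%, over the 8 members with enough UMIs. From APOE4 to APOE2, Hk2 was higher (1 member) beside 11.5%, and 8 members, all but Hk2 and Hif1a, were lower beside 11.5%. The medians over the members with enough UMIs were 0.99, 0.36 and -0.74 against -0.05, -0.02 and -0.02 over all genes. The Vegfa ratio of APOE2 to APOE3, 14.8-fold, rests on 1 UMI in APOE3 and has a log2 interval of 1.36 to 9.22.

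**Figure D3:**
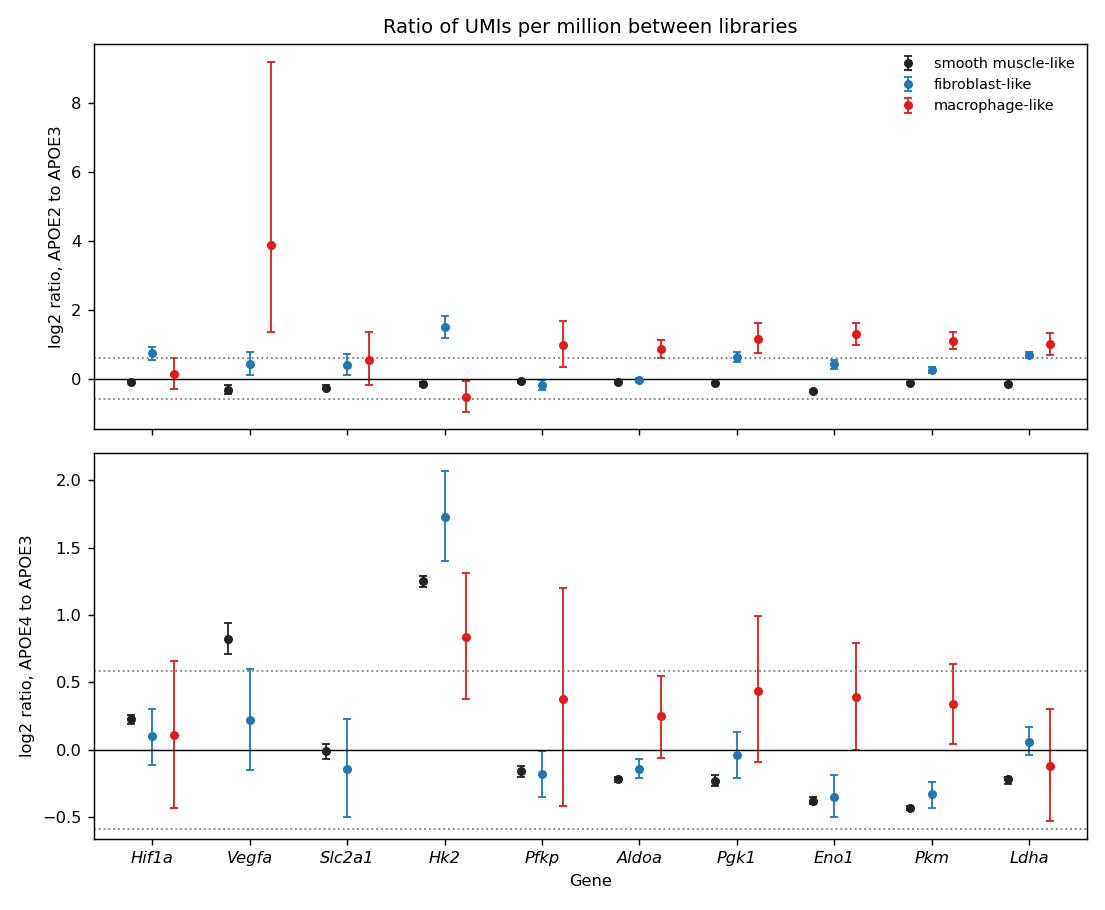
Log2 ratio of CPM of each member from APOE2 to APOE3 (upper panel) and from APOE4 to APOE3 (lower panel) in 3 cell classes. Points are ratios of 1 library to another, bars are exact 95% counting intervals, dotted lines mark 1.5-fold and pairs with fewer than 50 UMIs are not drawn. Smooth muscle-like cells lie between the dotted lines in the upper panel, and Hk2 lies above the line for all 3 classes in the lower one.

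The macrophage-like cells of APOE2 were not uniform. In that library 46 of the 399 cells had 10 or more UMIs per 10000 from Spp1, Gpnmb and Fabp5, genes known from lipid-laden foam cells, and the APOE3 and APOE4 libraries had 0 of 126 and 0 of 146 such cells. The limit was set after the values were seen, and 6 of the 46 cells had between 10 and 20, with 7, 2 and 1 cells between 5 and 10 in the 3 libraries. All 10 members were higher in these 46 cells than in the other 353 of the same library. How many of all genes were higher in the 46 cells was not counted, so this does not set the members apart from other genes. Vegfa was at 68.3 CPM against 2.21, Slc2a1 at 54.9 against 22.1, Hk2 at 77.7 against 36.4 and Hif1a at 100.5 against 54.8. The ratios of the enzymes ran from 1.92-fold for Eno1 (387 against 201) to 2.67-fold for Pgk1 (238 against 89.5), with Pkm at 686 against 286 and Aldoa at 585 against 238. All 51 Vegfa UMIs came from 8 of the 46 cells, at most 12 from any of them. The 46 cells were deeper (median 14049.5 UMIs against 7081), had less smooth muscle marker RNA (346 against 844 CPM) and fewer immediate early and heat shock transcripts (10824 against 24558), and 0 of them were among the highest doublet scores. The part of these differences in the result was not tested. Without the 46 cells the members past the fold from APOE2 to APOE3 were Eno1, Pkm, Pgk1, Ldha and, now lower, Hk2, with 36.4 against 65.4. That is 4 members higher beside 9.07% of all 7200 genes in these cells and 1 lower beside 9.12%. Eno1 kept a log2 ratio of 1.03 (0.70 to 1.37), and the Vegfa ratio then rested on 6 and 1 UMIs. From APOE4 to APOE2 the members past the fold fell from 9 to 4, 1 higher (Hk2) beside 9.91% of all genes and 3 lower (Slc2a1, Eno1 and Ldha) beside 10.5%.

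**Figure D4:**
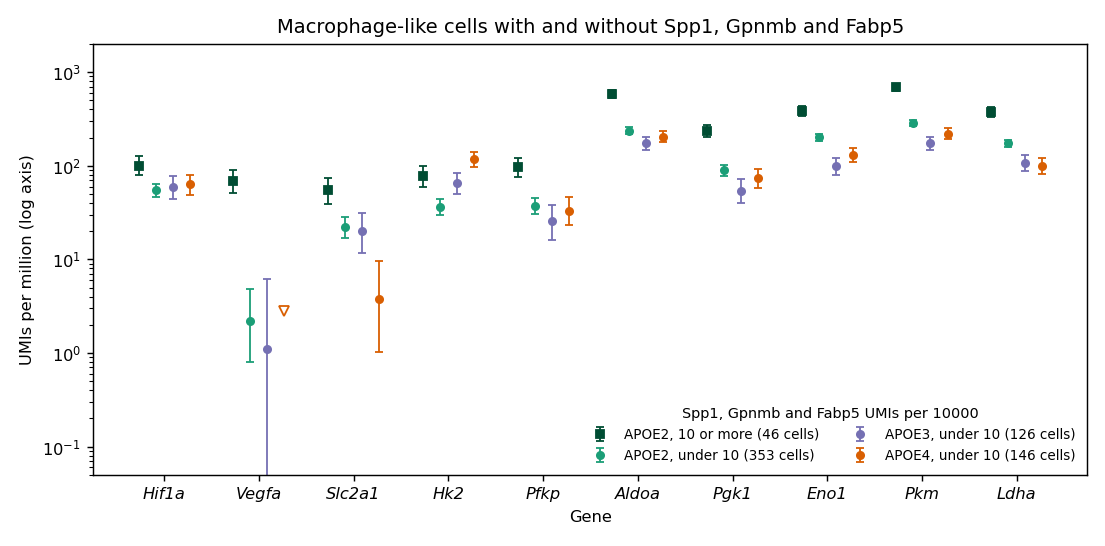
Members in macrophage-like cells with 10 or more (square, APOE2 only) and under 10 (circles) Spp1, Gpnmb and Fabp5 UMIs per 10000. The axis is CPM on a log scale, bars are exact 95% Poisson intervals, and the triangle marks 3 counts where none was seen. The square lies above the APOE2 circle for each of the 10 genes, furthest for Vegfa at 68.3 against 2.21. How many of all genes would lie the same way was not counted.

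The smooth muscle-like cells were next looked at by cluster. Of the clusters, 14 held at least 200 of these cells, and R12 and R19 among them could not be named from their markers. Over the cells of all 3 libraries together, Hk2 varied most among them, from 12.7 CPM in R14 (led by Sod3, Lamb2 and Flna) to 145 in R1 (led by Gadd45b, Csrnp1 and Ifrd1), an 11.5-fold range. The libraries take different shares of each cluster, and within APOE2, APOE3 and APOE4 Hk2 stood at 8.59, 7.12 and 28.7 in R14 (9, 8 and 19 UMIs) and at 96.9, 99.4 and 211 in R1. In APOE2 it was R7 that had the highest Hk2 level, at 110.0. Vegfa ranged 5.12-fold and Hif1a 3.11-fold, both from R14 up to R7 (led by Gm15564, Lars2 and Gm26917), while Pfkp ranged 1.53-fold and the 5 enzymes of the lower pathway between 1.85-fold and 2.35-fold. Both R14 and R7 were shallow, with median depths of 3283 and 4547 UMIs per cell against 16200 in R0. Apart from Pfkp, whose Spearman's rho with the other members lay between -0.38 and 0.01, the members fell into 2 sets across clusters. The level of Hk2 went with that of Hif1a (rho 0.91 over the 14 clusters) and with Vegfa (0.84), and against Aldoa (-0.71) and Pkm (-0.60), whereas Aldoa went with Pkm (0.92), Pgk1 (0.88) and Eno1 (0.81). The clusters share libraries, in unequal parts, and differ in depth, so these values are a description. R1 had the most immediate early and heat shock transcripts, 29528 CPM against 8264 to 15891 in the other clusters, and over the 14 clusters those transcripts had a rho of 0.17 with Hk2. The clusters were made without these genes, so the rho does not describe single cells. Hk2 in cells under and over the median of the list is given below.

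The APOE4 excess of Hk2 was seen in every one of the 14 clusters. The log2 ratio of APOE4 to APOE3 ran from 0.53 to 2.01, with 12 clusters past the fold, and that of APOE4 to APOE2 from 0.55 to 1.74. In R0, the largest cluster, Hk2 stood at 32.0, 35.9 and 86.3 CPM in APOE2, APOE3 and APOE4. Vegfa was higher in APOE4 than in APOE3 in 14 of 14 clusters, 7 of them past the fold, and higher than in APOE2 in 12 of 14. Some of these Vegfa ratios rest on few UMIs. In clusters such as R7, R8, R12 and R14 the interval of the ratio to APOE3 held 0. In R8 it was 0.18 (-0.82 to 1.21) from 20 and 17 UMIs, and R14 had 3 and 2 UMIs. Hif1a was higher in APOE4 than in APOE3 in 9 of 14. Pkm, Eno1, Pgk1 and Ldha were lower in APOE4 than in APOE3 in 14 of 14, with 1, 2, 1 and 0 clusters past the fold. In some clusters the interval held 0, as in R7 for Eno1, Pgk1 and Ldha. All 14 clusters are parts of the same libraries and do not repeat the comparison. How many of all genes kept the same direction in every cluster was not counted. A list of 13 immediate early and heat shock genes, which also answer handling of the tissue, moved with the same library. From APOE4 to APOE3, 7 of the 13 were higher beside 8.29% of all genes and 0 lower beside 4.06%, and its sum was 11846, 15080.1 and 20918 CPM in smooth muscle-like cells of APOE2, APOE3 and APOE4, and mitochondrial UMIs made up 2.23%, 1.73% and 2.90%. In macrophage-like cells the sum of the list stood at 34458 CPM in APOE3 and 22980.5 in APOE4. The part of the list and of the mitochondrial share in the Hk2 result was not tested in either class. Splits of the smooth muscle-like cells, chosen after the data were seen, gave the following values. Among cells at or under the median of that list Hk2 was at 36.6, 39.2 and 70.1, which puts APOE4 over APOE3 by 0.84 (0.75 to 0.93) on the log2 scale, and among cells over it at 72.5, 73.6 and 155, where it was 1.08 (1.03 to 1.13). For Hif1a the log2 ratio in the lower part was -0.0036 (-0.08 to 0.07), with an interval that held 0, and 0.30 (0.25 to 0.35) in the upper. Vegfa had 0.51 and 0.75. Split by the mitochondrial percent the Hk2 ratio was 1.21 and 1.29, and split by depth 1.23 and 1.31.

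**Figure D5:**
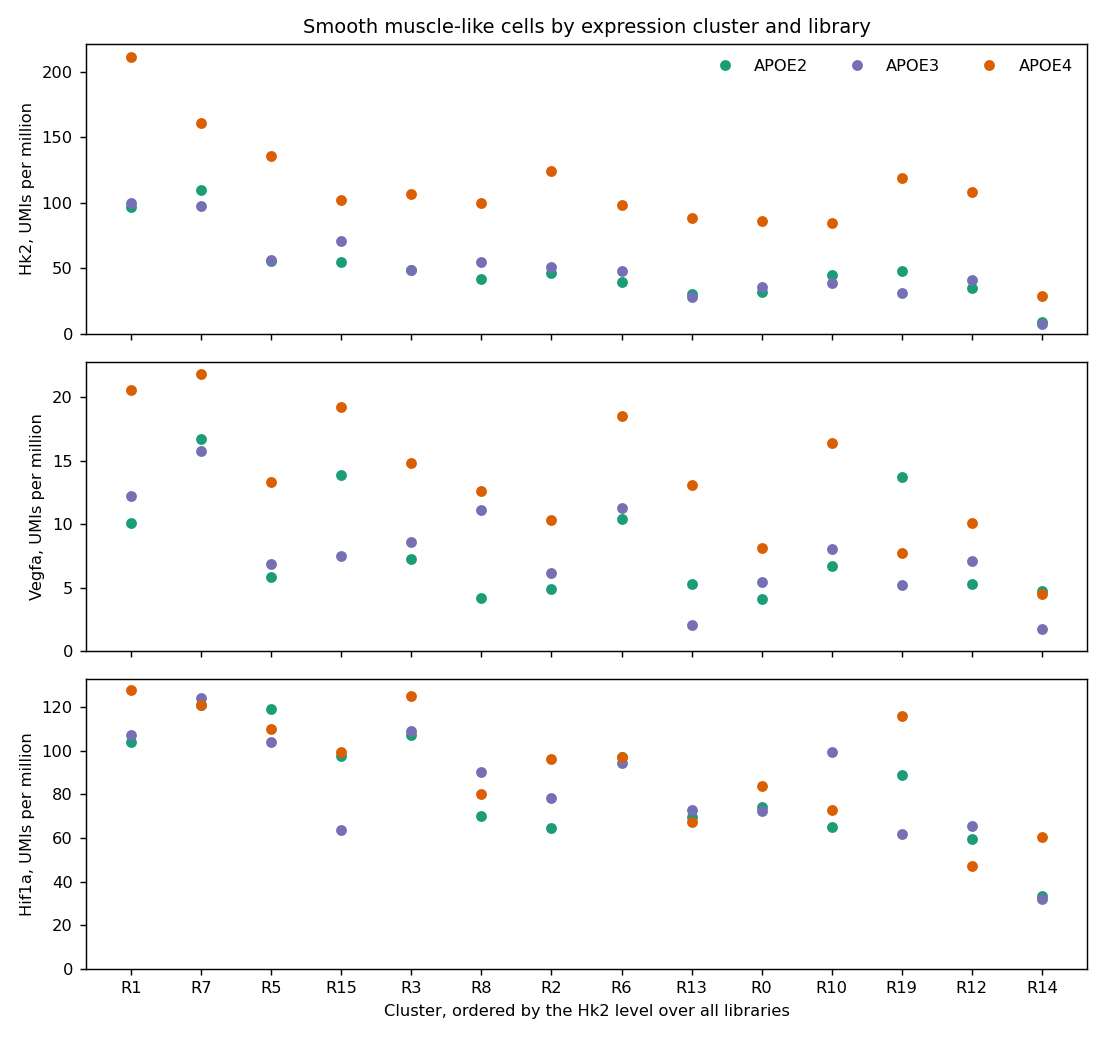
Hk2, Vegfa and Hif1a in the smooth muscle-like cells of each cluster with at least 200 such cells (CPM, linear axis, 1 point per library). Clusters are ordered by Hk2. The APOE4 point is above the APOE2 and APOE3 points for Hk2 in all 14 clusters.

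Other genes of the pathway were counted in the same way. Of 8 genes of oxygen sensing, 1 was past the fold from APOE2 to APOE3 and 1 from APOE4 to APOE3 in smooth muscle-like cells, both higher, beside 9.20% and 8.29% of all genes. Of the 21 genes found of a list of hypoxia responders, 2 and 3 were higher in these comparisons, beside the same shares of all genes, and 0 were lower, beside 3.04% and 4.06%. The largest ratio was that of Angptl4, a lipase inhibitor induced by fasting and hypoxia, at 4.07 CPM in APOE2 against 0.589 in APOE3. Car9, a carbonic anhydrase taken as a marker of hypoxia, was scarce, at 1.08, 0.473 and 1.35 in APOE2, APOE3 and APOE4. Of 16 other glycolysis genes with enough UMIs, 2 were higher beside 8.29% of all genes and 1 lower beside 4.06% from APOE4 to APOE3. Slc16a1, which carries lactate and pyruvate across the membrane, was at 7.11 in APOE4 against 2.53 in APOE3, and Aldoc at 0.348 against 0.598. Kdr, the main VEGF receptor of endothelium, had 38 UMIs in APOE2 and 12 in APOE3 smooth muscle-like cells. Summed markers of other cell types were also higher in APOE2 than in APOE3 smooth muscle-like cells, at 51.9 against 28.7 CPM for endothelial, 271 against 144 for fibroblast, 51.8 against 11.6 for macrophage and 32.0 against 1.56 for neutrophil markers, and their part in the Kdr and Angptl4 values was not tested. None of the 6 genes of pyruvate entry into mitochondria was past the fold in smooth muscle-like cells in any comparison. Beside this, 9.20% of all genes were higher and 3.04% lower from APOE2 to APOE3. The shares were 8.29% and 4.06% from APOE4 to APOE3, and 7.43% and 10.4% from APOE4 to APOE2. With shares this small, 0 of 6 genes does not set the list apart from other genes.

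In fibroblast-like cells Vegfd, a ligand of the lymphatic VEGF receptor, was lower in APOE2 (151 CPM) than in APOE3 (327). Slc16a3, the lactate exporter, was higher at 10.9 against 4.03, and Egln3, a prolyl hydroxylase that marks HIF alpha for destruction, had 3.67 against 2.08. From APOE4 to APOE3, Angptl4 was lower (40.5 against 80.7), Hif3a was lower (2.54 against 5.20) and Bhlhe40, a repressor raised by hypoxia, was higher (131 against 77.7). In macrophage-like cells 5 of 8 other glycolysis genes with enough UMIs were higher in APOE2 than in APOE3 beside 11.9% of all genes and 0 were lower beside 13.4%. Ndrg1, a gene induced by hypoxia, had 108 UMIs in APOE2 and 2 in APOE3, a log2 ratio of 3.81 (1.93 to 6.88), Bhlhe40 was at 48.2 CPM against 9.98, and Slc16a3 at 28.6 against 6.66. These 3 were named for their APOE2 to APOE3 ratios, and many of their APOE2 UMIs came from the 46 cells with foam cell genes. Those cells held 85 of 108 Ndrg1, 137 of 167 Bhlhe40 and 44 of 99 Slc16a3 UMIs, so the levels there are no separate observation. Ndrg1 was at 114 CPM there against 8.47 in the other macrophage-like cells of APOE2, and Slc16a3 at 58.9 against 20.2. Without the 46 cells Bhlhe40, with 30 UMIs left, was close to its 9.98 CPM in APOE3. Ndrg1 and Slc16a3 stayed above their 2.22 and 6.66 CPM in APOE3, which rest on 2 and 6 UMIs. From APOE4 to APOE3 macrophage-like cells, Hk1 was higher (51.1 against 18.9) and the VEGF co-receptors went apart, Nrp2 higher at 216 against 113 and Nrp1 lower at 186 against 346. Within APOE2, Nrp2 was higher in the 46 cells than in the other macrophage-like cells, while Hk1 was about even and Nrp1 was lower.

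Across cell classes the order of levels, by the median over libraries with at least 10 cells of a class, differed between members. Neutrophil-like cells, present in number only in APOE2 (33 cells), ranked at the top for Vegfa, Slc2a1, Hk2, Pgk1, Eno1, Pkm and Ldha, with 868 CPM for Pkm and 402 for Ldha. This rests on 1 library, and at 11 UMIs its Vegfa and Hk2 levels had an interval of 35.0 to 126. Next to them, T lymphocyte-like cells were high in Ldha (286 to 320.5) and Pgk1 (111 to 175). Smooth muscle-like cells had the highest median for Aldoa (515 to 600.0), within the interval of 394 to 621 around the 1 neutrophil-like value of 498. For Pkm they came second to neutrophil-like cells, and their range over libraries, 476 to 643, was clear of the endothelial-like cells ranked below, at 172 to 278. B lymphocyte-like cells ranked last of the nucleated classes for Aldoa, Pgk1, Eno1, Pkm and Ldha, and were clear of the class above them in Pkm, at 95.2 to 109.6 against 183 to 247 in T lymphocyte-like cells. For Hk2 the ranges of neutrophil-, macrophage- and smooth muscle-like cells overlapped, as did those of fibroblast-like and T lymphocyte-like cells below them.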

How the data were processed

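Droplet single-cell RNA-seq of aortic cells was deposited as 1 matrix of raw UMI counts per genotype. Per the file headers the authors made these counts with Cell Ranger 7.0.1, and the labels name the mm10 build. Intron and strand settings are not given in the sources used here. The authors' cell annotation was not used here.

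Cells with at least 200 genes and under 20% mitochondrial UMIs were kept. A class needed 3 markers and a minimum share of marker UMIs, set after the data were seen. Counts were summed per class and library and divided by the class total (CPM, UMIs per 1000000), with exact Poisson intervals, exact conditional binomial intervals for ratios and exact Clopper-Pearson intervals for shares (95%), all covering counting error only. No test was run, since each genotype is 1 pooled library. A gene was counted past a fold of 1.5 with at least 50 UMIs in both libraries together. Clusters came from Seurat 5.3.0 with sctransform 0.4.2 (R 4.3.3), 3000 features and 30 principal components, with 32 listed genes kept out of the features. Doublet scores came from Scrublet in scanpy 1.11.5, and the highest 6% of cells were marked. Intervals used scipy 1.17.1, and the scripts were tested on simulated data. Promoters and gene positions were read from RefSeq and GENCODE tables of GRCm38. All 10 members were named, and from each pathway list the 3 genes with the largest ratio per class and comparison over all lists, with the isozyme partners. Members and lists were chosen with earlier results of these data known.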

Additional observations from a re-analysis of the deposited data

Results flagged for a closer look

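Several members had ratios of opposite sign in 2 cell classes, each with a counting interval clear of 0 and at least 1 of them past 1.5-fold. These differences between classes were not tested, and every log2 ratio below compares 1 library with another. How many of all genes met this rule was not counted. The intervals in smooth muscle-like cells are narrow because the UMIs are many, so that small ratios there are clear of 0. From APOE2 to APOE3, Hif1a was at 0.73 in fibroblast-like and -0.10 in smooth muscle-like cells, Hk2 at 1.50 in fibroblast-like and -0.53 in macrophage-like cells, and Pfkp at 0.98 in macrophage-like and -0.18 in fibroblast-like cells. The fibroblast-like Hif1a value rests in large part on 66 APOE2 cells in a smooth muscle cluster, and with classes taken from clusters it was 0.05. The fibroblast-like Hk2 value lay between 0.68 and 1.52 over 7 settings. In the same comparison Vegfa was at 3.89 in macrophage-like and -0.33 in smooth muscle-like cells. The lower enzymes were positive in macrophage-like and negative in smooth muscle-like cells, with 0.86 and -0.10 for Aldoa, 1.16 and -0.12 for Pgk1, 1.29 and -0.35 for Eno1, 1.10 and -0.12 for Pkm, and 1.01 and -0.16 for Ldha. The macrophage-like values include the 46 APOE2 cells with foam cell genes. Without them Pfkp was at 0.56 (-0.11 to 1.28), Aldoa at 0.46 and Hk2 at -0.84, and Vegfa rested on 6 and 1 UMIs. Pgk1, Eno1, Pkm and Ldha were then at 0.72, 1.03, 0.72 and 0.69. From APOE4 to APOE2, Hif1a was at 0.33 in smooth muscle-like and -0.63 in fibroblast-like cells, which hold the same 66 cells, and Slc2a1 at 0.24 in smooth muscle-like and -2.95 in macrophage-like cells, the last from 4 UMIs in APOE4.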

How the results depend on the processing

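No paired analysis was possible because each genotype is 1 library. Of 58 ratios to APOE3, 0 of those past 1.5-fold changed sign over 7 settings. With classes taken from clusters 3 smaller ratios of APOE2 to APOE3 in fibroblast-like cells with intervals clear of 0 did, Eno1 from 0.42 to -0.07, Pkm from 0.24 to -0.13 and Slc2a1 from 0.40 to -0.05, and 5 ratios whose intervals held 0 changed sign under some setting. Each count in this section joins members that were higher and members that were lower. The share of all genes was taken only for the main setting and for macrophage-like cells without foam cell genes. The other counts here have no such share beside them and describe only how the count moved. A stricter cell filter (500 genes, 10% mitochondrial UMIs), a minimum of 1000 UMIs per cell and leaving out the highest doublet scores kept all 9 counts of members past the fold within 1.5 times. With classes taken from clusters the count was 1 for APOE2 to APOE3 and 1 for APOE4 to APOE2 in fibroblast-like cells and 2 for APOE4 to APOE3 in macrophage-like cells. Without cells of 100 or more smooth muscle marker UMIs both fibroblast counts were 1, with Ldha and Pgk1 just under the fold at 0.56 from APOE2 to APOE3. With the mean of each cell's CPM they were 1 and 0, and the macrophage counts were 4 (APOE2 to APOE3), 2 (APOE4 to APOE3) and 5 (APOE4 to APOE2). Scaling to the median gene gave 2 for APOE4 to APOE2 in fibroblast-like cells. A minimum of 20 or 200 UMIs gave 2 or 0 for APOE4 to APOE3 in macrophage-like cells. At a fold of 1.25 the counts were 2 and 4 in smooth muscle-like (APOE2 and APOE4 to APOE3), 7 and 3 in fibroblast-like and 5 in macrophage-like cells (APOE4 to APOE3). At a fold of 2 they were 1 in smooth muscle-like cells (APOE4 to APOE3), 1 and 0 in fibroblast-like (APOE2 to APOE3, APOE4 to APOE2) and 0 and 4 in macrophage-like cells (APOE4 to APOE3 and to APOE2). How many of all genes passed the folds of 1.25 and 2 was not counted, so these counts cannot be set against the other genes. The following were chosen after seeing the data. Without the foam cell group the APOE4 to APOE2 count was 4. In cells with few immediate early UMIs the APOE4 to APOE3 counts were 1, 0 and 3 in smooth muscle-, fibroblast- (Hk2 having too few UMIs to count) and macrophage-like cells and the APOE2 to APOE3 count in fibroblast-like cells was 1. In macrophage-like cells the APOE4 to APOE2 count was 5 among cells with many such UMIs and 2 among those with a high mitochondrial percent. Among shallow cells it was 0, with 2 for both ratios to APOE3, and 1 for APOE2 to APOE3 in fibroblast-like cells. Beyond fewer UMIs in the smaller sets, the cause was not tested. The Hk2 log2 ratio of APOE4 to APOE3 in smooth muscle-like cells stayed between 1.20 and 1.32 over 7 settings. These settings do not include the split by the immediate early and heat shock list given above. In each part of that split the ratio lay below this range.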
